A study of Homo sapiens with 17 samples.

Results

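Heparan sulfate is a long sugar chain that cells attach to proteoglycan core proteins and carry on their surface and in the matrix around them. The genes described here are 10 that encode its polymerases, its sulfotransferases and the sulfatases that edit the finished chain, out of 27315 genes in the deposited table. They are EXT1, EXT2, NDST1, NDST2, HS2ST1, HS6ST1, HS6ST2, HS3ST1, SULF1 and SULF2, matched by gene symbol, and all 10 were found. The set was chosen by symbol, and selected on one measured value: HS6ST2 differed between the guides against HIF2a. That difference, and every other comparison of HS6ST2 that uses the HIF2a guide libraries, is therefore described without a test.

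The chain is extended by a complex of EXT1 and EXT2, which adds glucuronic acid and N-acetylglucosamine in turn. NDST enzymes then replace acetyl groups by sulfate, and the 2-O-, 6-O- and 3-O-sulfotransferases add sulfate at further positions in the Golgi. At the cell surface, SULF1 and SULF2 take 6-O-sulfate off again. The pattern of sulfate decides which growth factors, among them FGF and VEGF family members, the chain can hold, and in the kidney heparan sulfate is a component of the glomerular basement membrane.

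RNA was measured in the established line 786-O, grown from a clear cell carcinoma of the kidney and without functional VHL, the protein that marks HIF alpha subunits for destruction. Every group carried Cas9 and a guide RNA from the lentiviral vector pLenti CRISPR-V2 and was selected with an antibiotic. TruSeq v2 libraries, which do not record strand, were sequenced as pairs. The HIF2a experiment has the guides sg4 and sg6 against HIF2a (gene symbol EPAS1) and a scrambled guide as control, with 3 libraries each. The USP37 experiment has the guides sg3 and sg9 against the deubiquitinase USP37, with 3 libraries each, and its own scrambled control with 2 libraries. Separate cultures are not named for the replicates, and neither are clones or pools, so p-values cover only the spread between these libraries, which may be technical.

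Values are the authors' variance-stabilised values (VST) on a log2-like scale, with no depth per library. They are not scaled to gene length, so levels are not compared between genes. The floor named below is their most frequent value, 5.14, and single values lie under it, down to 4.85. A gene was called where limma gave a Benjamini-Hochberg adjusted p under 0.05 over the 12484 genes tested. EPAS1 fell by 1.97 with the HIF2a guides (limma adjusted p = 2.21e-12) and USP37 fell by 1.00 with its own guides (limma adjusted p = 1.22e-05). Each also fell in the other experiment, EPAS1 by 0.72 with the USP37 guides (limma adjusted p = 6.6e-05) and USP37 by 0.44 with the HIF2a guides (limma adjusted p = 0.00903). All 5 renal lineage markers were tested, and they were not constant: PAX8 was between 12.2 and 13.0 and MME between 6.44 and 9.26. With the HIF2a guides MME fell by 1.09 and CDH6 rose by 1.31, with the USP37 guides MME fell by 0.78, and MME differed by 1.37 between the controls (USP37 minus HIF2a). The 5 leukocyte and 3 endothelial markers stayed under the filter, with medians between 5.15 and 5.80 and single values up to 6.78 (CD3E). Averaged over a library, the endothelial markers were at 5.53 to 5.78 with the HIF2a guides and at 5.29 to 5.36 in their control. The leukocyte markers were at 5.35 to 5.81 in the USP37 control and at 5.17 to 5.32 with the USP37 guides. NEFL, a neurofilament gene listed as a marker of the 293T packaging line, was at 10.5 to 11.9, and NEFM and LIN28B did not exceed 6.06. NEFL fell with both sets of guides (-0.70 with those against HIF2a and -0.68 with those against USP37), and the part of these markers in the results below was not tested. The HIF2a sg6 libraries 2 and 3 lay farthest from their group, with median absolute differences of 0.198 and 0.197 against 0.107 to 0.156 for the other libraries.

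SULF2 was lower with all 4 guides, HS6ST2 was low in every library except those of the HIF2a control and HIF2a sg6, and NDST1 moved in opposite directions in the 2 experiments. In the mean of the HIF2a guides 2 of the 8 genes tested there were called, both lower (SULF2 and NDST1). Of all genes tested, 30.6% were called in that comparison and 14.5% were called lower. In the mean of the USP37 guides SULF2 and HS6ST2 were called lower and NDST1 higher, 3 of 9, beside 44.3% of all genes (22.4% higher and 21.9% lower). SULF2 was thus lower in both means, as were 4.77% of all genes, and NDST1 was called in opposite directions, as were 6.82%. The shares of 2 in 8 and 3 in 9 are below the background, so the number of calls says nothing particular about them. With single guides, 2 of 8 genes were called with HIF2a sg4 (both lower, beside 25.3% of all genes, 12.1% lower) and 1 of 8 with HIF2a sg6 (lower, beside 29.0% and 13.8%). With USP37 sg3, 1 of 9 was called higher and 3 lower, beside 35.2% of all genes (16.8% higher and 18.4% lower). With USP37 sg9, 0 were called higher and 3 lower, beside 47.8% (24.6% higher and 23.2% lower). Between sg9 and sg3 1 was higher and 1 lower, beside 16.6% and 14.2% of all genes. The median was 0.04 over the 8 genes in the HIF2a experiment and -0.17 over the 9 genes in the USP37 experiment, and over all genes tested it was -0.0045 and 0.0060. SULF1 stayed under the filter on low values, with a mean of 5.61 over the 17 libraries, and was not tested.

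**Figure D1:**
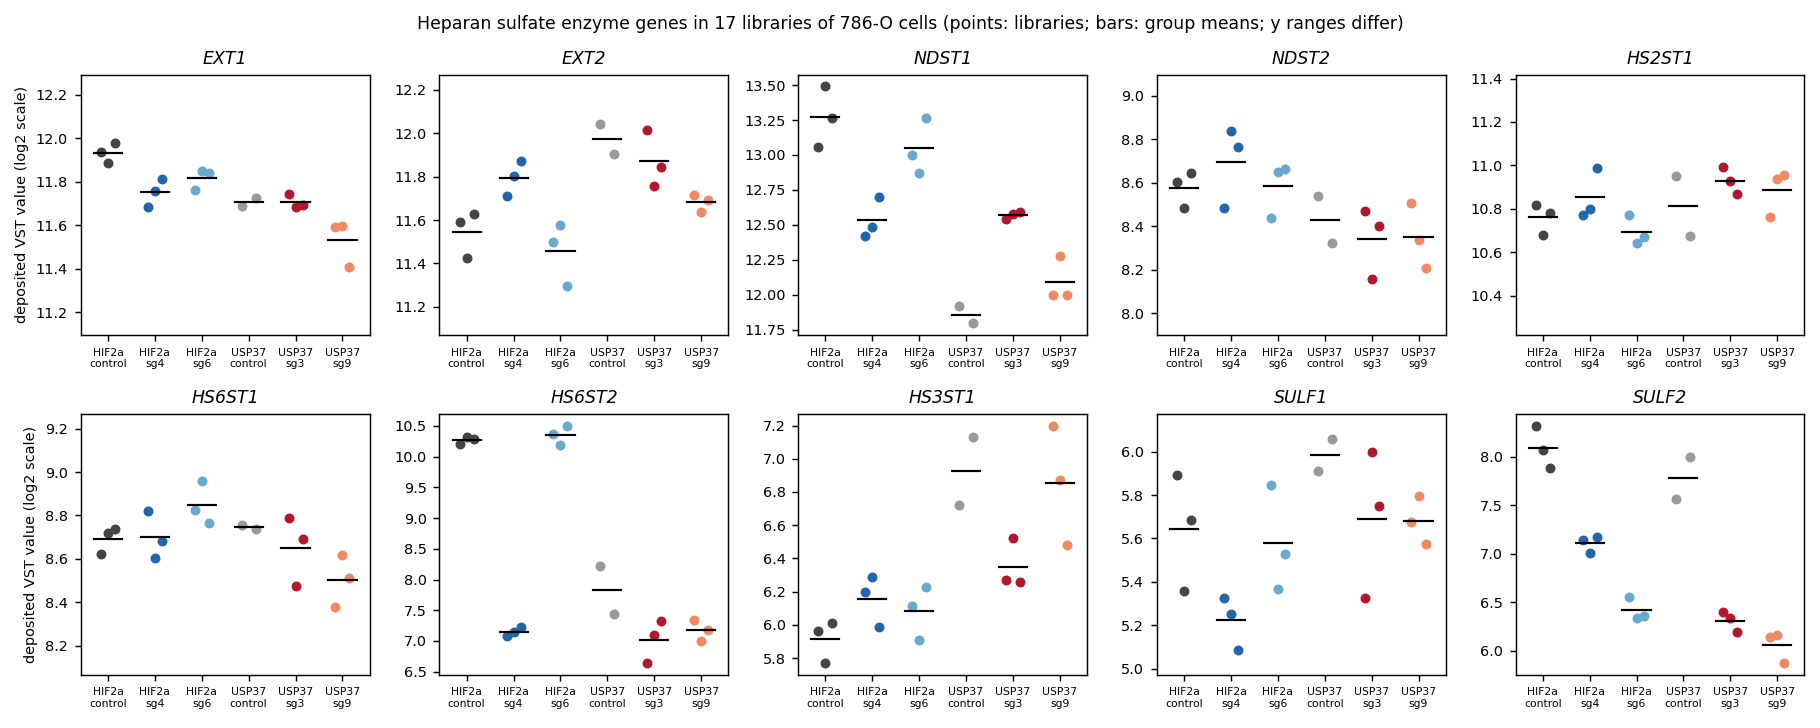
Deposited VST values (log2 scale, y axis) of the 10 genes in each library, by group (x axis), with a bar at each group mean and a separate y range in each panel. HS6ST2 lies between 10.19 and 10.50 in the HIF2a control and sg6 libraries and at 8.21 or lower in all others, and SULF2 lies at 7.56 or higher in the control libraries and at 7.17 or lower in all guide libraries.

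The polymerase genes moved little. EXT1 read 11.94, 11.89 and 11.98 in the HIF2a control, 11.68, 11.76 and 11.81 with sg4, and 11.76, 11.85 and 11.84 with sg6. All 6 guide libraries lay below the 3 control libraries, which was also so for 12.1% of all genes tested. The difference of -0.15 (SE 0.07) in the mean of the guides was not called (limma adjusted p = 0.0965). In the USP37 experiment EXT1 read 11.69 and 11.73 in the control, 11.68 to 11.74 with sg3 and 11.41 to 11.60 with sg9, and the mean of the guides differed by -0.09 (SE 0.08, limma adjusted p = 0.361).

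EXT2, the partner of EXT1 in the polymerase, read 11.59, 11.42 and 11.63 in the HIF2a control. It read 11.71, 11.80 and 11.87 with sg4 and 11.50, 11.58 and 11.30 with sg6. The sg4 libraries lay above the control and the sg6 libraries overlapped it, and neither guide was called (sg4 0.25, limma adjusted p = 0.0542; sg6 -0.09, limma adjusted p = 0.51). In the USP37 experiment EXT2 read 12.04 and 11.91 in the control, 12.02, 11.75 and 11.84 with sg3, and 11.71, 11.63 and 11.69 with sg9. It fell by 0.29 with sg9 (SE 0.10, limma adjusted p = 0.024) and was not called with sg3 (-0.10, limma adjusted p = 0.465). The sg9 call was lost without USP37 control library 2 or sg9 library 2, with a highest limma adjusted p = 0.199, and the difference between sg9 and sg3 was not called (-0.19, limma adjusted p = 0.124).

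NDST1, a bifunctional enzyme that starts sulfation by exchanging acetyl for sulfate, gave the clearest opposite movement in the set. It was called in opposite directions in the 2 experiments, as were 6.82% of all genes. Its values were 13.06, 13.49 and 13.27 in the HIF2a control, 12.42, 12.48 and 12.70 with sg4, and 13.00, 12.87 and 13.27 with sg6. The sg4 libraries lay below every control library and the sg6 libraries overlapped them. NDST1 fell by 0.48 in the mean of the HIF2a guides (SE 0.10, limma adjusted p = 0.000792). It fell by 0.74 with sg4 (SE 0.12, limma adjusted p = 4.58e-05), and sg6 was not called (-0.23, limma adjusted p = 0.151).

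In the USP37 experiment NDST1 read 11.92 and 11.79 in the control, 12.54, 12.58 and 12.60 with sg3, and 12.00, 12.28 and 12.00 with sg9. All 6 guide libraries lay above the control, as for 20.0% of all genes tested. It rose by 0.47 in the mean of the guides (SE 0.12, limma adjusted p = 0.00232) and by 0.72 with sg3 (limma adjusted p = 0.000226), and sg9 was not called (0.23, limma adjusted p = 0.142). Without USP37 control library 3 the call for the mean of the guides was lost (limma adjusted p = 0.0523).

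The NDST1 effects of the experiments differed by 0.96 (USP37 minus HIF2a, SE 0.15, limma adjusted p = 5.13e-05), a contrast in which 1 of the 8 genes tested was higher and 0 lower, beside 38.6% of all genes called (19.6% higher and 19.0% lower). The controls themselves were far apart: 2 of the 9 genes were called higher (EXT2 and HS3ST1) and 3 lower (HS6ST2, NDST1 and EXT1) in the USP37 control, beside 40.5% of all genes (20.1% higher and 20.4% lower). The HS3ST1 call adds no support, since that gene passed the filter through its values in the USP37 groups. Of the 6 groups, the HIF2a control had the highest mean for NDST1 (13.27) and the USP37 control the lowest (11.86), a difference of -1.42 (SE 0.13, limma adjusted p = 8.32e-08). Each control belongs to 1 experiment, so experiment and control cannot be told apart in that difference. NDST1 shares 0.714% of its exonic bases with the antisense gene NDST1-AS1, which did not exceed 5.43 in any library.

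NDST2, the second enzyme of this kind in the set, was between 8.16 and 8.84 in all 17 libraries, and the groups overlapped. Its differences were 0.06 (SE 0.10, limma adjusted p = 0.694) with the HIF2a guides and -0.08 (SE 0.12, limma adjusted p = 0.596) with the USP37 guides. In GENCODE v29, 82.9% of NDST2's exonic bases also belong to the annotated gene AC022400.6 on the same strand, so its reads may be shared. HS2ST1, which sulfates the 2-O position of the uronic acid, lay between 10.64 and 10.99, and its differences of 0.01 (95% interval -0.15 to 0.18) and 0.09 (95% interval -0.10 to 0.29) were not called (limma adjusted p = 0.911 and 0.422).

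HS6ST1 and HS6ST2 encode enzymes that place sulfate at the 6-O position of glucosamine, the position that SULF1 and SULF2 clear. HS6ST1 stayed between 8.38 and 8.96 in all libraries. It was not called in the mean of the HIF2a guides (0.08, SE 0.09, limma adjusted p = 0.532) or of the USP37 guides (-0.17, SE 0.10, limma adjusted p = 0.198). The sg6 libraries (8.77 to 8.96) lay above the 3 HIF2a control libraries (8.63 to 8.74). The sg9 libraries (8.38 to 8.62) lay below both USP37 control libraries (8.76 and 8.74). Neither guide alone was called (limma adjusted p = 0.28 for sg6 and 0.0919 for sg9). For the separation of a single guide from its control, here and at the other genes, no share over all genes was computed.

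HS6ST2 read 10.20, 10.32 and 10.28 in the HIF2a control and 10.37, 10.19 and 10.50 with sg6. With sg4 it read 7.07, 7.14 and 7.23. The sg4 libraries were thus about 3 log2 units below the control, while sg6 and control libraries overlapped. As a description, the fitted difference from the control was -3.12 (SE 0.17) for sg4 and 0.09 (SE 0.17) for sg6, and sg6 minus sg4 was 3.21 (SE 0.17). In that guide-against-guide contrast 9.22% of all genes tested were called. A mean over these guides would average unlike values, and none is given. EPAS1 itself was at 9.43 to 9.70 with sg4 and at 10.11 to 10.48 with sg6, both below the control (11.76 to 12.01).

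In the USP37 experiment HS6ST2 was low throughout: 8.21 and 7.44 in the control, 6.65, 7.10 and 7.32 with sg3, and 7.34, 6.99 and 7.18 with sg9. All guide libraries lay below both control libraries, which was so for 21.2% of all genes tested. HS6ST2 fell by 0.73 in the mean of the guides (SE 0.17, limma adjusted p = 0.00149). The differences were -0.81 with sg3 and -0.66 with sg9 (limma adjusted p = 0.00225 and 0.00689). The call rests on a control of 2 libraries that lie further apart than the guide means do. Without control library 2 it was -0.35 (limma adjusted p = 0.169), and neither guide was then called (limma adjusted p = 0.134 for sg3 and 0.299 for sg9). Without control library 3 it was -1.12.

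Between the controls HS6ST2 differed by -2.44 (USP37 minus HIF2a, SE 0.19, limma adjusted p = 1.18e-08). From high to low the group means were 10.35 (HIF2a sg6), 10.27 (HIF2a control), 7.83 (USP37 control), 7.17 (USP37 sg9), 7.15 (HIF2a sg4) and 7.02 (USP37 sg3). Library ranges overlapped between the first and second of these and among the last 3. The other 2 steps separated groups without overlap.

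**Figure D2:**
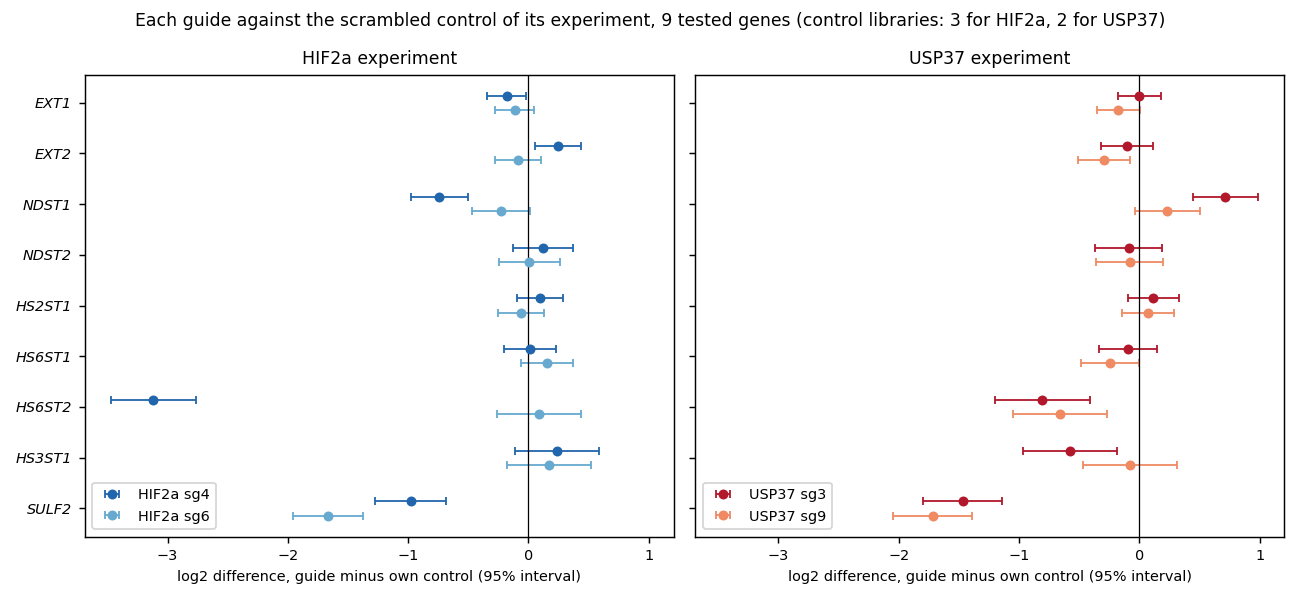
Fitted log2 difference (x axis) of each guide from the scrambled control of its experiment, with 95% intervals, for 9 genes (y axis). HS6ST2 was not tested in the HIF2a experiment, because the set was selected on those values. Its intervals there are no test. SULF2 lies below 0 with all 4 guides, and HS6ST2 is at -3.12 with HIF2a sg4 and at 0.09 with HIF2a sg6, values that are shown as a description.

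HS3ST1, which adds the 3-O-sulfate found in antithrombin-binding stretches of the chain, was weakly expressed. It read 5.97, 5.77 and 6.01 in the HIF2a control and 5.91 to 6.29 in the 6 HIF2a guide libraries. These values are close to the floor, where differences are compressed, and the difference of 0.20 (SE 0.15) was not called (limma adjusted p = 0.313). In the USP37 experiment HS3ST1 read 6.72 and 7.13 in the control, 6.27, 6.52 and 6.26 with sg3, and 7.20, 6.87 and 6.48 with sg9. The sg3 libraries lay below both control libraries and the sg9 libraries overlapped them.

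HS3ST1 fell by 0.58 with sg3 (SE 0.19, limma adjusted p = 0.0206) and not with sg9 (-0.08, limma adjusted p = 0.761), and sg9 minus sg3 was 0.50 (SE 0.17, limma adjusted p = 0.028, beside 30.8% of all genes called). Without sg3 library 1, sg3 library 3 or control library 3 the sg3 call was lost (highest limma adjusted p = 0.253). The difference between the guides was lost without sg3 library 1 or 3 or sg9 library 1 or 2 (highest limma adjusted p = 0.161). Between the controls HS3ST1 differed by 1.01 (USP37 minus HIF2a, SE 0.19, limma adjusted p = 0.000251). HS3ST1 passed the filter through its values in the USP37 groups. Its mean over all libraries was 6.35, where the lowest mean tested was 6.14. The HIF2a control (5.92) and sg6 (6.08) lay below that line. The test between the controls therefore adds no support beyond the values themselves.

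SULF2, a secreted and surface-bound endosulfatase, was the gene of the set with the same call in every guide. It read 8.32, 8.06 and 7.88 in the HIF2a control, 7.14, 7.01 and 7.17 with sg4, and 6.56, 6.34 and 6.36 with sg6. In the USP37 experiment it read 7.56 and 7.99 in the control, 6.40, 6.33 and 6.20 with sg3, and 6.14, 6.16 and 5.88 with sg9. Every guide library lay below every control library, those of the other experiment included. Within an experiment, this was so for 12.1% of all genes tested with the HIF2a guides and for 21.2% with the USP37 guides. No share was computed for the separation across experiments. In bulk RNA, fewer cells with the transcript and less transcript per cell cannot be told apart.

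SULF2 fell by 1.32 with the HIF2a guides (SE 0.12, limma adjusted p = 2.32e-08). It fell by 1.59 with the USP37 guides (SE 0.14, limma adjusted p = 3.22e-08). The guides alone gave -0.98 for sg4 and -1.67 for sg6 in the HIF2a experiment, and -1.47 for sg3 and -1.72 for sg9 in the USP37 experiment (limma adjusted p from 8.54e-09 to 1.75e-05). Of all genes tested, 7.48% were called lower with both HIF2a guides alone, 13.4% with both USP37 guides alone and 2.10% with all 4. The difference between the experiments was -0.27 (95% interval -0.66 to 0.12, limma adjusted p = 0.267), and the controls differed by -0.31 (limma adjusted p = 0.126). As a description, sg6 minus sg4 was -0.69 (SE 0.14), opposite in sign to the same difference for HS6ST2 (3.21) and EPAS1 (0.81). SULF2 shares 1.44% of its exonic bases with NCOA3 on the opposite strand, which had a median of 10.3, and 3.18% with the opposite-strand gene AL354813.1. Without strand, reads from these shared stretches cannot be told apart. The low values approach the floor, so these differences may be understated. How far the floor or the shared stretches shift them was not measured.

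SULF1, which encodes the other 6-O-endosulfatase, read 5.89, 5.36 and 5.68 in the HIF2a control, 5.09 to 5.33 with sg4 and 5.37 to 5.85 with sg6. It read 5.91 and 6.06 in the USP37 control, 5.33, 6.0 and 5.75 with sg3, and 5.68, 5.79 and 5.58 with sg9. The sg4 libraries lay below the control libraries and the sg6 libraries overlapped them, and all of these values lie within 1 log2 unit of the floor.

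Promoters are shown for the genes with the largest changes, because HIF proteins bind DNA at the cores ACGTG and GCGTG. The windows hold the 250 bases before an annotated start in RefSeq (GRCh38.p14), read 5′ to 3′ along the gene, with any match on either strand in capitals, so that CACGT and CACGC mark matches on the other strand. SULF2 has 4 such windows, of which the 2 shown hold a match and the other 2 hold none. The first contains CACGTG, in which matches on both strands overlap, and a further ACGTG core starting 165 bases before the start. The second contains 2 GCGTG cores. The single HS6ST2 window holds none.
SULF2, chr20:47786097-47786346, minus strand: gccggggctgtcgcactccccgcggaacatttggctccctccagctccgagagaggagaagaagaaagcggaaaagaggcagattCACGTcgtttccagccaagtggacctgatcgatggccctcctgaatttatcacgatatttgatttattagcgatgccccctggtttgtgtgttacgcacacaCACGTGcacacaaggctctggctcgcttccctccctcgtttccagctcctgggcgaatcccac
SULF2, chr20:47785482-47785731, minus strand: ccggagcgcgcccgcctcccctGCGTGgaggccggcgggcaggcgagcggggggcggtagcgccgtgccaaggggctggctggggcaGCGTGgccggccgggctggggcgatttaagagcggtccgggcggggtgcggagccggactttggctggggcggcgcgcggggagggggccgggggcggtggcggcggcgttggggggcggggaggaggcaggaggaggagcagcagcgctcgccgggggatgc
HS6ST2, chrX:132961371-132961620, minus strand: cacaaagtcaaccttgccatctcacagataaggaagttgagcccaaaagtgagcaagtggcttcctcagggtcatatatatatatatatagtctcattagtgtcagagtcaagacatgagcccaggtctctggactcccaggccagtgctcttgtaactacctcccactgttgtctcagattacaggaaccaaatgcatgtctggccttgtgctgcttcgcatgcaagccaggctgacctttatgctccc
A match is common: 43.1% of 34788 different promoter windows of this length held at least 1. Of the 10 genes, 8 were looked up, with 14 windows in all, and 5 windows held a match. NDST1 had none in its window, HS2ST1 had 3, HS3ST1 had 1, and EXT2 had 1 in 1 of its 3 windows. A match is a description of the letters, and no match says nothing about binding elsewhere.

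Genes with values most like those of HS6ST2 were sought among 3105 tested genes whose highest and lowest group means were at least 1 log2 unit apart. The highest Pearson r over the 17 libraries belonged to LSS, the lanosterol synthase of cholesterol synthesis (0.94), the fatty acid desaturase FADS2 (0.92), the sterol-regulated transcription factor SREBF2 (0.92), DCDC2 (0.90) and the stearoyl-CoA desaturase SCD (0.90). LSS had group means of 10.91 in the HIF2a control and 10.96 with sg6 against 10.23 with sg4, and 10.40, 9.90 and 10.18 in the USP37 control, sg3 and sg9. SCD had 14.09, 14.46 and 13.14 in the HIF2a control, sg6 and sg4, and 13.98, 13.19 and 13.06 in the USP37 groups in that order. The USP37 control thus lay nearer to the HIF2a control for SCD than it did for HS6ST2.

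The 3 lowest r belonged to BMPER, an extracellular BMP modulator (-0.94), the collagenase MMP1 (-0.88) and the transcription factor ETS2 (-0.87). MMP1 had group means of 6.02 in the HIF2a control, 6.44 with sg6 and 7.65 with sg4, and of 7.77, 8.41 and 9.28 in the USP37 control, sg3 and sg9. These r values describe the same 17 libraries, which fall into 2 separate experiments and share the authors' batch correction, and no p is given. The libraries are replicates of 6 groups, so they are not 17 independent points. They include the HIF2a guide libraries on which the set was selected. Genes that differ between sg4 and sg6 are therefore favoured at both ends of r.

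**Figure D3:**
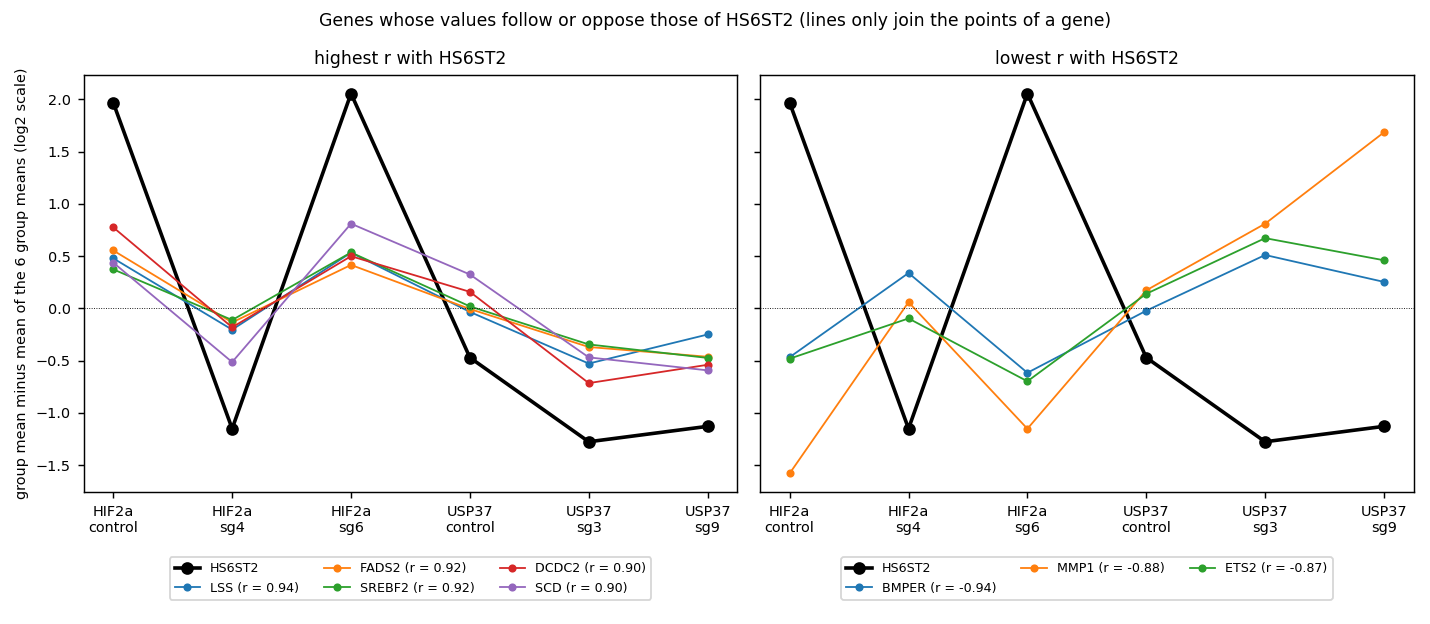
Group means minus the mean over the 6 groups (log2 scale, y axis) for HS6ST2 and the 5 genes with the highest (left) and the 3 with the lowest (right) Pearson r to it over 17 libraries. HS6ST2 spans a wider range than the genes that resemble it: its group means run from 7.02 to 10.35, those of LSS from 9.90 to 10.96.

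The genes around these enzymes were grouped in 7 lists. Of the other heparan sulfate modifying enzymes, 3 of 13 were expressed above the filter, with 2 called higher and 0 lower with the HIF2a guides and 0 higher and 1 lower with the USP37 guides. Beside these and the counts that follow, 16.1% of all genes were called higher and 14.5% lower with the HIF2a guides, and 22.4% and 21.9% with the USP37 guides. The epimerase GLCE, which turns glucuronic into iduronic acid, rose by 0.28 with the HIF2a guides (SE 0.09, limma adjusted p = 0.0178) and fell by 0.56 with the USP37 guides (SE 0.10, limma adjusted p = 0.000165). With sg4 alone GLCE rose by 0.48, while the value of 0.07 with sg6 was not called (limma adjusted p = 0.62). Between the controls GLCE differed by 0.55 (USP37 minus HIF2a). EXTL3, a transferase that starts the chain, rose by 0.27 with the HIF2a guides and was not called with the USP37 guides (0.15, limma adjusted p = 0.25). With single HIF2a guides EXTL3 was called with sg6 (0.36) and not with sg4 (0.19, limma adjusted p = 0.204). EXTL2 was called in neither.

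Enzymes of the linker between core protein and chain had 2 members called higher and 1 lower of 6 with the HIF2a guides, and 1 higher and 2 lower with the USP37 guides, beside 30.6% and 44.3% of all genes called. The phosphatase PXYLP1, which acts on the linker xylose, rose by 0.57 in the first and fell by 0.86 in the second. The xylose kinase FAM20B fell by 0.33 with the HIF2a guides, while the galactosyltransferase B4GALT7 rose by 0.31 (called with sg4, 0.43, and not with sg6, 0.19). With the USP37 guides the galactosyltransferase B3GALT6 rose by 0.81 and the xylosyltransferase XYLT2 fell by 0.61. Both of these also differed between the controls, by -0.74 for B3GALT6 and -0.37 for XYLT2 (USP37 minus HIF2a).

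Genes that supply sugar and sulfate donors had 4 called higher and 1 lower of 12 with the HIF2a guides, and 3 higher and 1 lower with the USP37 guides, beside 30.6% and 44.3% of all genes called. The sulfate transporter SLC26A2 rose in both, by 0.92 (SE 0.11, limma adjusted p = 1.15e-06) and by 0.85 (SE 0.13, limma adjusted p = 2.16e-05), with each of the 4 guides between 0.71 and 0.99. For a rise in both experiments or with all 4 guides, here and at other genes, no share over all genes was computed. Between the controls SLC26A2 differed by -0.42 (USP37 minus HIF2a, limma adjusted p = 0.0212). PAPSS1, which makes the sulfate donor PAPS, rose by 0.24 and the PAPS transporter SLC35B2 by 0.35 with the HIF2a guides, and neither was called with the USP37 guides (-0.07 and -0.19). Both were called with HIF2a sg4 (0.31 and 0.44) and not with sg6 (0.17 and 0.25). SLC35D1, a nucleotide sugar transporter, fell by 0.27 with the HIF2a guides and rose by 0.42 with the USP37 guides. The fall was called with sg6 (-0.49) and not with sg4 (-0.05, limma adjusted p = 0.791). SLC35D2, a related transporter, rose by 0.35 with the USP37 guides (called with sg9, 0.45, and not with sg3, 0.25), and UGDH, which makes UDP-glucuronic acid, fell by 0.28. Between the controls UGDH differed by 0.54 and SLC35D2 by 0.39.

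Core proteins that carry the chain had 6 called higher and 0 lower of 11 with the HIF2a guides, with a median of 0.27, beside -0.0045 over all genes, of which 16.1% were called higher. COL18A1 (1.11, SE 0.09, limma adjusted p = 2.4e-09), TGFBR3 (0.76), and the syndecans SDC3 (0.69) and SDC2 (0.52) rose most. The USP37 control was the lower of the controls at SDC3 (-0.67), COL18A1 (-0.37) and HSPG2 (-0.88). With the USP37 guides 4 were higher and 1 lower, beside 22.4% and 21.9% of all genes, with a median of 0.08. SDC1 (0.63), the basement membrane proteoglycan HSPG2 (0.61) and TGFBR3 (0.47) rose there, and COL18A1 fell by 0.48. HSPG2 was called with sg3 (1.15) and not with sg9 (0.07, limma adjusted p = 0.804), and TGFBR3 likewise with sg3 (0.51) and not with sg9 (0.42, limma adjusted p = 0.0545).

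Chondroitin and dermatan sulfate enzymes, which build on the same linker, had 3 higher and 3 lower of 15 with the HIF2a guides and 6 higher and 3 lower with the USP37 guides, beside 30.6% and 44.3% of all genes called. CSGALNACT1, which starts chondroitin chains, rose by 1.92 with the HIF2a guides (SE 0.13, limma adjusted p = 1.64e-10), and the sulfotransferase CHST7 rose by 0.91, the polymerase CHSY3 by 0.70, while CHST3 fell by 0.61. With the USP37 guides DSEL (0.83), CHST7 (0.46) and CHST3 (0.41) rose and the epimerase DSE fell by 0.58. CHST3 was called with sg3 (0.65) and not with sg9 (0.18, limma adjusted p = 0.241). The USP37 control was the lower of the controls at CHST3 (-0.80) and DSEL (-0.90).

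Enzymes that break heparan sulfate down had 4 higher and 1 lower of 10 with the HIF2a guides (median 0.11) and 2 higher and 5 lower with the USP37 guides (median -0.29), beside 30.6% and 44.3% of all genes called. The lysosomal sulfatase IDS fell by 0.90 with the HIF2a guides (SE 0.08, limma adjusted p = 1.61e-08), and NAGLU (0.70), ARSG (0.52) and SGSH (0.42) rose. SGSH was called with sg6 (0.67) and not with sg4 (0.16, limma adjusted p = 0.417). With the USP37 guides HGSNAT (-0.96, SE 0.12, limma adjusted p = 3.02e-06), IDUA (-0.92), GUSB (-0.62) and GLB1 (-0.47) fell. The USP37 control was the higher of the controls at NAGLU (0.90), ARSG (0.42), SGSH (0.49), HGSNAT (0.38), GUSB (0.64) and GLB1 (0.62), and IDS and IDUA were not called between the controls.

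Growth factors and receptors that bind heparan sulfate had 6 higher and 4 lower of 13 with the HIF2a guides and 1 higher and 5 lower with the USP37 guides, beside 30.6% and 44.3% of all genes called. The factors midkine (MDK, -1.35), VEGFA (-1.32) and PDGFB (-1.31) fell and pleiotrophin (PTN) rose by 1.02 with the HIF2a guides. With the USP37 guides the receptor FGFR3 (-1.09), VEGFA (-0.70) and PTN (-0.69) fell and HBEGF rose by 0.93. The USP37 control was the lower of the controls at FGFR3 (-0.38), PTN (-0.41) and PDGFB (-0.40). PTN was called in opposite directions in the 2 experiments, as were 6.82% of all genes.

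**Figure D4:**
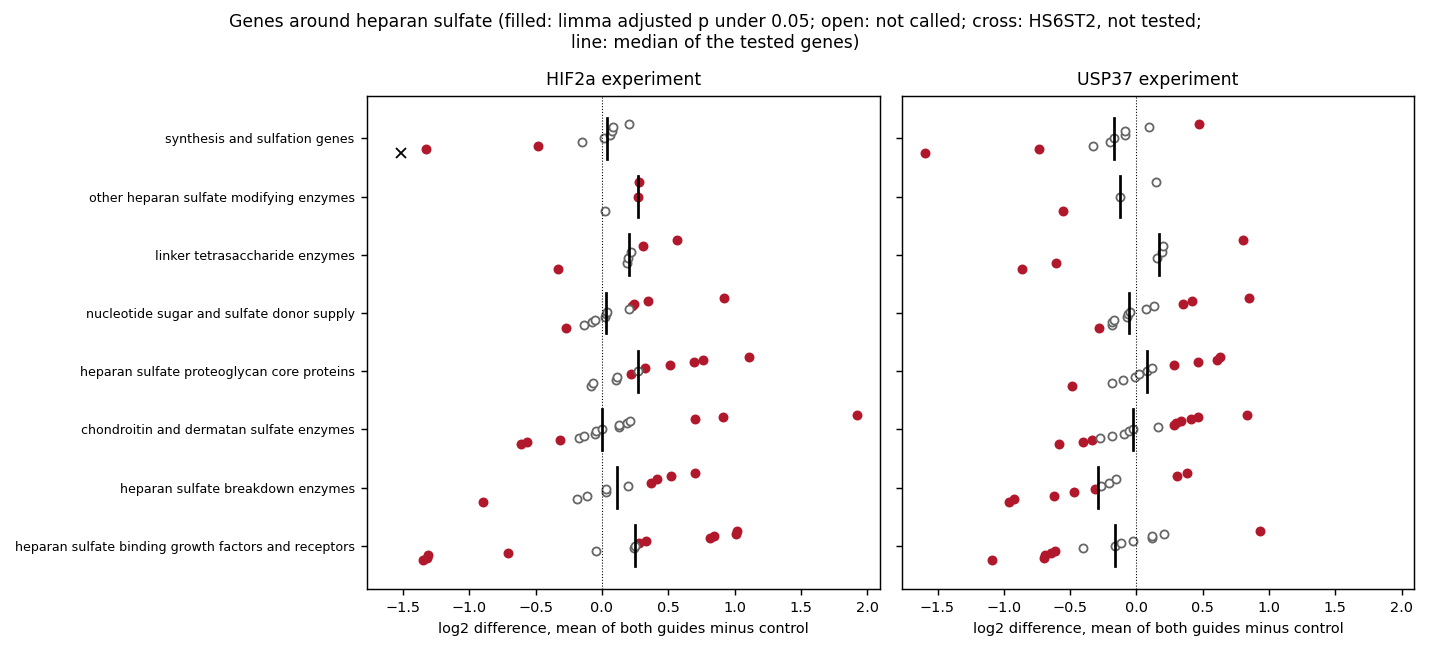
Log2 difference (x axis) of the mean of the guides from their control for each tested gene of 8 groups (y axis), in the HIF2a (left) and USP37 (right) experiments, filled where called, open where not, with a cross for HS6ST2 where it was not tested and a line at the median of the tested genes. Core proteins have a median of 0.27 on the left and breakdown enzymes a median of -0.29 on the right. The cross averages unlike guides (-3.12 with sg4 and 0.09 with sg6).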

How the data were processed

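The values are the authors' deposited log2-scale VST, corrected for batch, for 17 libraries. Per the submitters' processing notes the tools were DESeq2, Salmon, cutadapt and STAR 2.5.2b with build hg19, no roles given. The batch variable is not given here. For every gene the means over libraries with the same replicate number agree to 6.39e-14, so a replicate term had been removed. P-values from the 11 residual degrees of freedom therefore tend to be too small. The USP37 control has no library with the first replicate number, so equal means point to a removal that ignored group. Where the USP37 control differs from the other groups, values with that number would then be shifted. The size of that shift was not measured. Counts and depth are unknown.

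Genes were tested if their mean exceeded the floor, the 1st percentile over genes, by 1 log2 unit or more. The test was made with limma 3.58.1 (R 4.3.3), group means, mean-variance trend, with Benjamini-Hochberg adjustment per contrast. The script was tested on simulated data. HS6ST2 was left out of tests that use the HIF2a guide libraries, a choice made after results were seen. The genes and lists were chosen with earlier results of these data known. From each list the text names up to 4 called genes per experiment with the largest differences. Exonic overlaps come from GENCODE v29, a later build than the authors named, and serve as names and shares only. EXT1 and SULF1 promoters were not analysed here. For likeness to HS6ST2 the rule took 5 genes at each end of r, of which 3 are given at the low end, and the rest are not reported here. The lists of markers, likeness and 7 pathway groups carry no set test. Alternatives were filters, a replicate term, separate fits, scaling, weights and leaving out libraries.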

Additional observations from a re-analysis of the deposited data

Results flagged for a closer look

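The effects of the guides differed between the experiments at NDST1 (USP37 minus HIF2a 0.96, limma adjusted p = 5.13e-05) by the interaction contrast. Within the USP37 experiment the effects of sg9 and sg3 differed at NDST1 (sg9 minus sg3 -0.48, limma adjusted p = 0.00393) and at HS3ST1 (0.50). The group means of NDST1 were 13.27, 12.53 and 13.05 in the HIF2a control, sg4 and sg6, and 11.86, 12.57 and 12.09 in the USP37 control, sg3 and sg9. No group had the 4 libraries needed to look for an outlying library.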

How the results depend on the processing

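Of 23 called differences of single genes, 15 kept direction and call in every alternative, among them every SULF2 call against a control. The HS3ST1 call between the controls, which adds no support, is counted in both numbers. The stricter filter no longer tests SULF2 or HS3ST1 and is not counted for them. No called difference changed sign, and 33 uncalled ones did while staying uncalled. With the stricter filter the called genes numbered 1 for the mean of the HIF2a guides, 1 for sg4, 0 for sg6, 2 for sg3 and 1 for sg9 against sg3, in place of 2, 2, 1, 4 and 2, because fewer genes were tested. For the same reason the mean of the USP37 guides and sg9 lost SULF2, and the contrast of the controls lost HS3ST1. Array weights gave 4 for sg4, and a fit without the mean-variance trend gave 2 in place of 1 for the difference between the experiments. Array weights also brought calls of EXT2 with the mean of the USP37 guides (limma adjusted p = 0.0419) and of SULF2 between the controls. With each experiment fitted alone, NDST1 was called with USP37 sg9 (limma adjusted p = 0.0466). Leaving out each library in turn gave 1 to 2 for sg6, 1 to 3 for sg9, 1 to 2 for sg9 against sg3 and 1 to 2 for the difference between the experiments, with 2 without HIF2a sg6 library 2 or 3, USP37 sg3 library 1, sg9 library 1 or control library 2. The call of EXT1 between the controls (-0.23, limma adjusted p = 0.039) was lost in 7 alternatives. Leaving out a library also brought calls: EXT2 with sg4 without HIF2a sg4 library 1, HIF2a sg6 library 2 or 3 or USP37 sg3 library 1 (limma adjusted p from 0.0321 to 0.0498), NDST1 with HIF2a sg6 without its library 3 (-0.34, limma adjusted p = 0.032), EXT2 with the mean of the USP37 guides without sg3 library 1 (-0.23, limma adjusted p = 0.0451) and HS3ST1 with that mean without sg9 library 1 (-0.41, limma adjusted p = 0.039). With the replicate block the called genes numbered 2 in the HIF2a and 3 in the USP37 experiment, as without it, the control contrast had 4 in place of 5, and sg6 minus sg4 at HS6ST2 stayed at 3.21. Because a replicate term had already been removed from the deposited values, they cannot show whether same-numbered libraries deviated together. Without the 2 HIF2a sg6 libraries farthest from their group, an alternative chosen after seeing the data, 2 genes were called in the HIF2a and 3 in the USP37 experiment. Over all genes, the USP37 calls were 3683 without control library 2 and 3801 without control library 3 in place of 5525. Fits that leave a single USP37 control library take its spread from the remaining groups. The depth is unknown, so precision is set by the 2 or 3 libraries per group.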
